A study of Mus musculus with 12 samples.

Results

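Loss of the motor nerve changes the RNA of a muscle fibre within days, and the question here is whether that change depends on the histone variant H2A.Z. The quantity described is the difference of responses. For each gene it is the log2 change from innervated to denervated muscle in H2A.Z double-knockout mice, minus the same log2 change in control mice. A positive value means a more positive response in double-knockout muscle. It uses all 12 of the 12 RNA-seq libraries of the series and the raw read counts of all 12. The double-knockout mice (dKO; H2A-Z.1-/- and H2A-Z.2-/- with HSA Cre+) carry floxed copies of both H2A.Z genes and a Cre recombinase. Its promoter, HSA, is that of human skeletal actin and works in muscle fibres. The control mice (WT) carry the same floxed copies without Cre. All were C57BL/6 mice of 7 weeks, and the muscle was the tibialis anterior, a fast muscle of the lower leg. The left sciatic nerve was cut 48 h before sampling, and the intact opposite leg gave the innervated sample. Each of the 4 groups (denervated dKO, innervated dKO, denervated WT, innervated WT) holds 3 libraries. Libraries of equal genotype and replicate number were taken as the legs of 1 animal, which gives 6 animals, 3 dKO and 3 WT. Whole muscle was extracted, so cells other than fibres contribute RNA and keep their H2A.Z genes in dKO mice. A change in the number of such cells and a change in RNA per cell cannot be told apart.

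As background, H2A.Z replaces the ordinary histone H2A in nucleosomes that flank active promoters and is placed there by the SRCAP and Tip60 complexes. It has been linked to the induction of genes by many stimuli, which makes an inducible program in a tissue that no longer divides a test case. In muscle, the loss of nerve activity raises the myogenic factor myogenin (Myog), which binds E-box motifs in the promoters of acetylcholine receptor genes and of the ubiquitin ligase genes of atrophy. The induced receptor subunits, the kinase MuSK and the ligases Fbxo32 and Trim63 are the textbook members of this program.

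The promoters of 3 genes of that program and of Cdkn1a are shown because the results return to these genes, whose responses are compared below. Each sequence is the 250 bases before the start annotated by RefSeq (build GRCm38.p6), read 5′ to 3′ on the strand of the gene. Capitals mark the E-box letters CANNTG in the first 3 and in Cdkn1a the p53-type element, which is CATG, any 6 bases and CATG again. Both patterns are their own reverse complement, so 1 strand covers both.
Myog, chr1:134289754-134290003, plus strand: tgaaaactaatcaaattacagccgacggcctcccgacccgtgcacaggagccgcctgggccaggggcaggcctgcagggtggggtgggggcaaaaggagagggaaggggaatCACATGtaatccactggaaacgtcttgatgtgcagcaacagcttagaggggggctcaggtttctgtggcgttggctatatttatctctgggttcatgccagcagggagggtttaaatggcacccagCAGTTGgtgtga
Chrna1, chr2:73580339-73580588, minus strand: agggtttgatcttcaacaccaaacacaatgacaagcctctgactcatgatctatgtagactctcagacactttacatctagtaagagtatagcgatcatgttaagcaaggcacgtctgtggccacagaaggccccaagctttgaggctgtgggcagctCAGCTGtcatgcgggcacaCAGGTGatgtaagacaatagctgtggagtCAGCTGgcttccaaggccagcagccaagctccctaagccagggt
Chrng, chr1:87205561-87205810, plus strand: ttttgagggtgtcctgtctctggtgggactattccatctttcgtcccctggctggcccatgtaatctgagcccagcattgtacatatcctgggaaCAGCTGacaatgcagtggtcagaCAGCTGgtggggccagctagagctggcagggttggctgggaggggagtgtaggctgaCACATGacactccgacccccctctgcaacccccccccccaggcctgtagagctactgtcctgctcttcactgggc
Cdkn1a, upstream start, chr17:29090729-29090978, plus strand: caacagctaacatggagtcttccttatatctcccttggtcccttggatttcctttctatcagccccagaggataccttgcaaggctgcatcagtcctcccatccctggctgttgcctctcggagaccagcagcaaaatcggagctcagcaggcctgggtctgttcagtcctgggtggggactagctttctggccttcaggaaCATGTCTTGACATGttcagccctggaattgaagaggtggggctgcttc
The Myog window holds 2 E-boxes and the Chrna1 and Chrng windows hold 3 each. At least 2 occur in 31.8% and at least 3 in 12.2% of 32851 such RefSeq windows. The p53-type element occurs 1 time in this Cdkn1a window, 0 times in the window of its other start, and in 0.49% of all windows. These letter matches are descriptions and say nothing about which factor was bound.

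The libraries held 55668606 to 87753152 counted reads each. Of 31057 genes in the table, 17201 passed the filter on low counts and were tested. The 2 deleted genes checked the labels. H2afv (H2A-Z.2) had 5.40, 4.81 and 4.78 CPM (counts scaled to the total of the library) in denervated dKO muscle and 5.06, 5.89 and 6.06 CPM in innervated dKO muscle, against 21.6, 21.6 and 18.9 CPM in denervated WT muscle and 24.0, 23.9 and 18.5 CPM in innervated WT muscle. The genotypes did not overlap. H2afz (H2A-Z.1) had 7.84, 5.83 and 6.01 CPM in denervated dKO and 8.50, 6.74 and 9.93 CPM in innervated dKO muscle, against 11.2, 7.54 and 10.4 CPM in denervated WT and 13.9, 10.9 and 15.6 CPM in innervated WT muscle. In denervated legs 1 dKO library lay above the lowest WT library for this gene. A whole-gene count also takes reads from undeleted exons and from cells without Cre. The response to denervation at these genes did not pass the test of a difference, with 0.12 ± 0.17 for H2afz and −0.09 ± 0.14 for H2afv (log2, SE). Both 95% intervals lay within 2-fold. Across libraries, the correlation of a gene's deviation with its GC content was −0.52 in denervated WT replicate 2 and −0.38 in innervated dKO replicate 1, and −0.20 to 0.35 in the other libraries. Values without the pairs of legs that hold these libraries, those of dKO animal 1 and WT animal 2, are given for many of the genes and lists.

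No gene passed the test of a genotype difference in its denervation response. The count was 0 of 17201 (0%) at an adjusted p of 0.05 and also 0 at 0.10, in the edgeR quasi-likelihood test after Benjamini-Hochberg adjustment. The smallest adjusted p was 0.273, for Cdh4. At an unadjusted p of 0.05, 668 genes (3.88%) were counted, 324 with a higher response in dKO (1.88%) and 344 with a lower one (2%), where 860 would be counted if p-values were evenly spread. The companion tests in the same fit called large responses in each genotype. Denervation changed 8186 genes in dKO (47.6%), 4181 of them up (24.3%) and 4005 down (23.3%). It changed 8498 genes in WT (49.4%), 4380 of them up (25.5%) and 4118 down (23.9%). The 7053 genes called in both make up 86.2% of the dKO calls and 83.0% of the WT calls, and 7051 of them moved the same way. The 2 exceptions were Alox15, a lipoxygenase of myeloid cells at 0.196 CPM, and the predicted gene Gm16793 at 0.766 CPM, both named after their values were seen. A response called in 1 genotype only (1133 genes in dKO, 1445 in WT) does not by itself show a difference between genotypes, which is what the test of the difference addresses.

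DESeq2 with the same animals as blocks called 3 genes, all with a lower response in dKO, and counted 410 at an unadjusted p of 0.05. They were Cdh4 (difference −1.33, adjusted p = 0.000483), the small nucleolar RNA SNORA53 (−1.28, adjusted p = 0.000483) and Cdkn1a (−1.07, adjusted p = 0.00378). SNORA53 had a fitted difference of −1.30 ± 0.23 in edgeR at an adjusted p of 1. Counts of a small nucleolar RNA and of its host gene can share reads. The edgeR fit without a filter on low counts called 168 genes, 98 of them with a higher response in dKO. In that fit the prior degrees of freedom were infinite, so each gene's spread came from the trend over all genes and not from its own replicates. Mybph, a myosin-binding protein gene, had a difference of 1.01 with an SE of 0.119 there, against 1.01 with an SE of 0.30 in the fit with the filter.

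**Figure D1:**
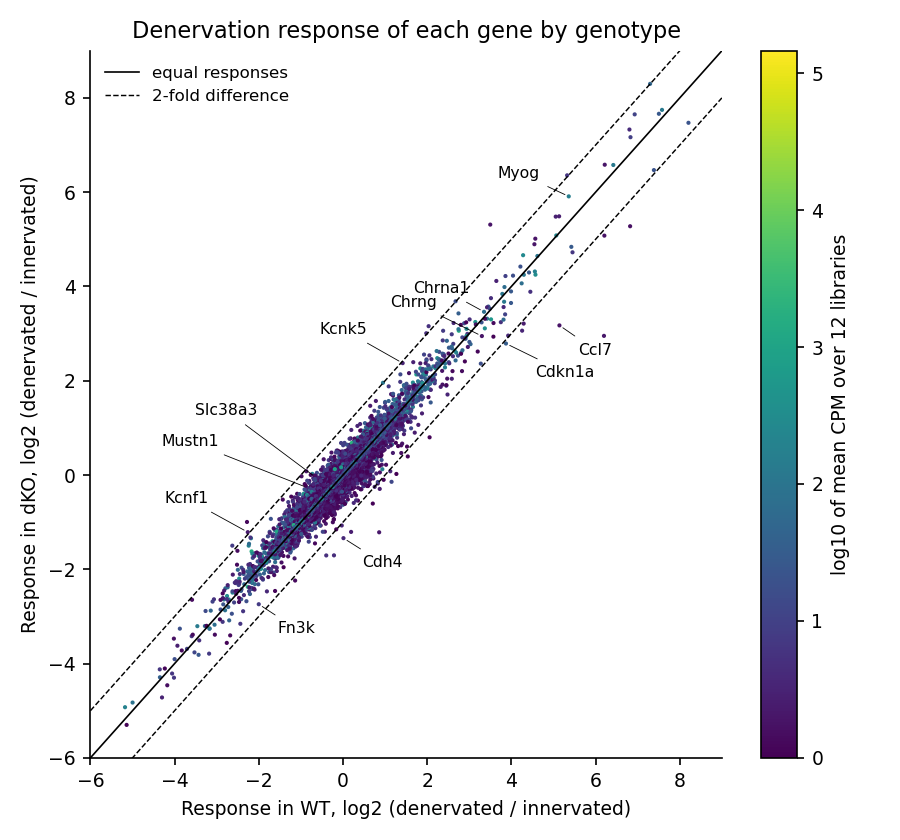
Denervation response of each gene in dKO (vertical) against WT (horizontal), both as log2 of denervated over innervated, for the 12706 genes averaging 1 CPM or more, coloured by log10 of mean CPM. The points follow the line of equal responses (Pearson r = 0.966 across genes), and only 34 estimates lie beyond the dashed lines of a 2-fold difference.

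The data bounded the difference for most genes. The 95% interval lay within a 2-fold difference either way for 74.4% of all tested genes, for 95.4% at 1 CPM or more (12124 of 12706) and for 98.7% at 10 CPM or more (7716 of 7819). It lay within a 1.5-fold difference for 56.1%, 75.8% and 91.3% of the same sets. The median size of the difference was 0.12 on the log2 scale over all tested genes, 0.09 at 1 CPM or more and 0.07 at 10 CPM or more. The median difference was −0.00 over all tested genes, and 8394 values were positive (48.8%). The TMM scaling centres the libraries, so a median near 0 is largely set by it. Among genes called in both genotypes and moving the same way, the response was smaller in dKO for 3727 and larger for 3324. Across genes, which are not independent replicates, dKO and WT responses correlated with r = 0.981 at 10 CPM or more.

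The bounds narrowed with expression level. From under 0.3 CPM to the range of 100 to 300 CPM, the median size of the difference fell through every bin, with values of 0.46 (under 0.3 CPM), 0.29 (0.3 to 1), 0.18 (1 to 3), 0.12 (3 to 10), 0.08 (10 to 30), 0.07 (30 to 100) and 0.06 (100 to 300). The median half-width of the 95% interval was 1.45 under 0.3 CPM, 0.54 at 1 to 3 CPM and 0.23 at 30 to 100 CPM. It was wider again, at 0.26, for 218 genes of 300 to 1000 CPM and, at 0.33, for the 80 genes above 1000 CPM. The share bounded within 2-fold was accordingly 0.217% under 0.3 CPM, 82.7% at 1 to 3 CPM, 95.2% at 3 to 10 CPM and at least 98.2% in each bin above 10 CPM. The difference divided by its SE varied less with level. Its median size was 0.69 to 0.74 in the bins up to 10 CPM and fell through each bin above, to 0.53 above 1000 CPM. The share at an unadjusted p of 0.05 was between 2.50% and 5.08% in all 9 bins. The correlation of the responses was 0.68 for genes under 0.3 CPM and 0.96 to 0.99 in each bin above 3 CPM.

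The most abundant genes leaned to a more positive value in dKO. Above 1000 CPM, among genes that include the fast myosin Myh4 and the actin Acta1, 64 of 80 differences were positive (80%), with a median of 0.07. At 300 to 1000 CPM 142 of 218 were positive (65.1%), with a median of 0.03, and at 1 to 3 CPM 871 of 1950 were (44.7%), with a median of −0.04. In the top bin, after removal of each library's GC trend, 68.8% were positive with a median of 0.08. Without dKO animal 1 and WT animal 2 72.5% were, with a median of 0.11. The median distance between the responses of a pair of animals in that bin was 0.22 within WT, 0.15 across genotypes and 0.11 within dKO.

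**Figure D2:**
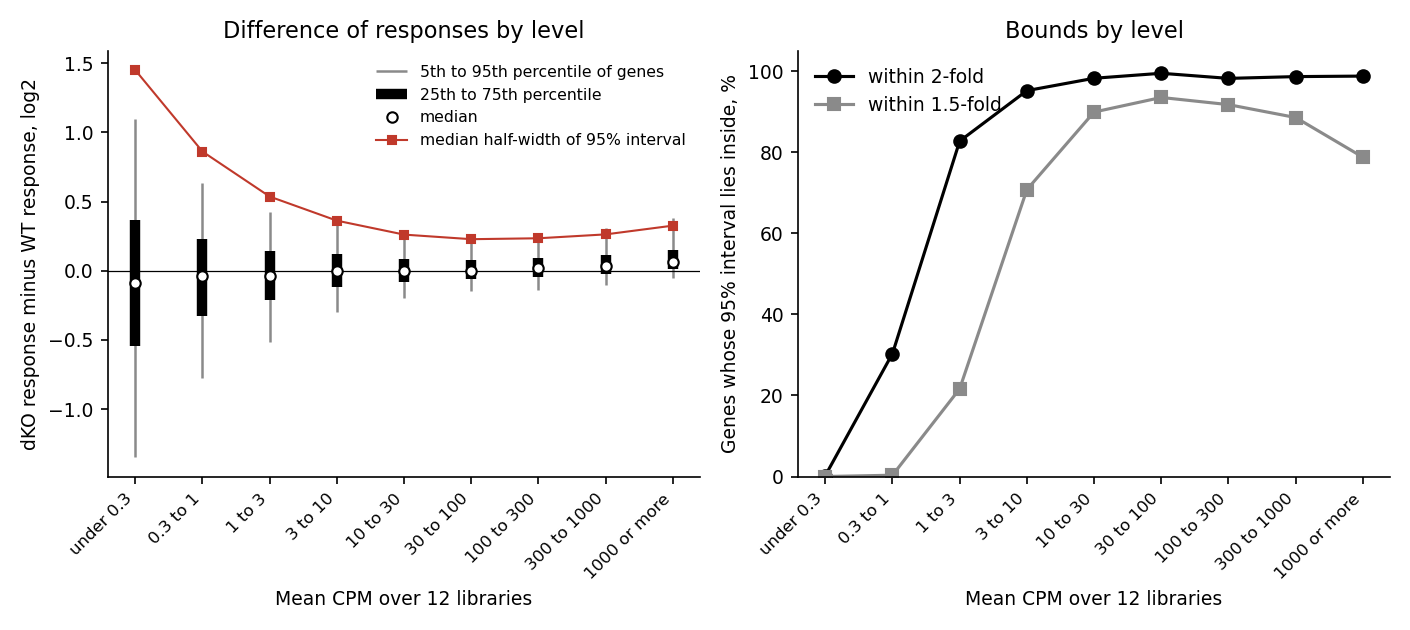
Left, difference of responses (dKO minus WT, log2) by bin of mean CPM: white points are medians, thick and thin bars are the middle 50% and 90% of genes, and red squares are the median half-width of a gene's 95% interval. Right, share of genes whose interval lies within 2-fold (black) or 1.5-fold (grey), which is 0.217% under 0.3 CPM and 99.4% at 30 to 100 CPM for 2-fold.

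Base composition moved with the difference. In the fifth of genes with the highest GC content the median difference was 0.12, and in the fifth with the lowest it was −0.05. After the GC trend of each library was removed these medians were −0.01 and 0.01. For each animal, the deviation of its response from the mean response of all 6 animals was correlated with GC content. The values were 0.41, 0.19 and −0.19 in dKO animals 1, 2 and 3, and 0.23, −0.49 and −0.02 in WT animals 1, 2 and 3. These deviations sum to 0 for each gene, so values of both signs must occur. The GC-corrected fit called 0 genes and counted 706 at an unadjusted p of 0.05, and the fit without dKO animal 1 and WT animal 2 called 0 and counted 697.

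The share of genes with a small p-value was higher among genes that responded strongly than among genes that did not. Among the 678 genes at 1 CPM or more that rose at least 2-fold on average, 78 (11.5%) reached an unadjusted p of 0.05. Among the 653 that fell as much, 48 (7.35%) did, and among the 8681 with a mean response under 0.5 on the log2 scale, 235 (2.71%) did. The median size of the difference was 0.16, 0.15 and 0.09 in these classes, and its median SE was 0.16, 0.19 and 0.12. The response was larger in dKO for 46 of the 78 induced genes and smaller for 32. It was larger in dKO for 18 of the 48 genes that fell and smaller for 30. Leaving out each pair of legs in turn gave 6.64% to 16.8% for induced genes, 5.36% to 15.2% for genes that fell, and 1.36% to 4.75% for genes with little response. Without the animal block the shares were 5.01% for induced genes, 2.76% for genes that fell and 1.1% for genes with little response. All of these values are descriptions, and 0 genes of each class passed the adjusted test.

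**Figure D3:**
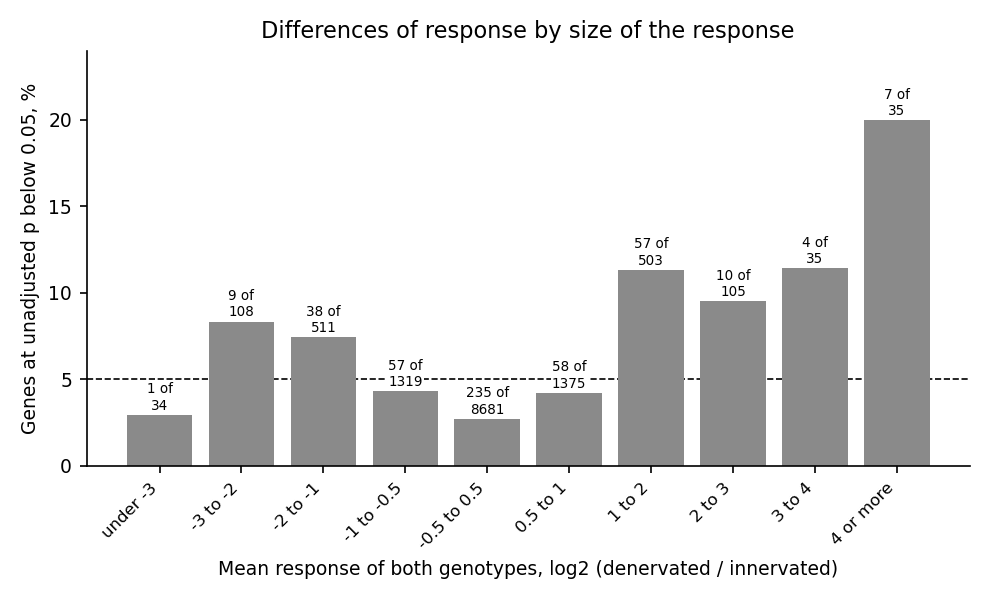
Share of genes at 1 CPM or more that reached an unadjusted p of 0.05 for the difference of responses, by the mean log2 response of both genotypes, with counts above the bars and the 5% expected of evenly spread p-values as a dashed line. The share is 2.71% (235 of 8681) for responses between −0.5 and 0.5 and 20% (7 of 35) at 4 or more.

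The responses of single animals overlapped between genotypes in their overall size. For each animal the response was computed as the log2 CPM of the denervated leg minus that of the innervated leg, with a prior count of 2. The SD of this response over 7819 genes at 10 CPM or more, a measure of its overall size, was 0.683, 0.746 and 0.785 in the dKO animals, against 0.769, 0.744 and 0.726 in the WT animals. The genotypes overlapped. The means were 0.738 ± 0.051 in dKO and 0.746 ± 0.022 in WT (SD), a difference of −0.008 with p = 0.9 in a two-sided exact permutation test over 3 and 3 animals, which cannot go below 0.1. The median over genes of the distance between the responses of a pair of animals was 0.116 to 0.165 within dKO and 0.107 to 0.166 within WT. Across genotypes it was 0.089 to 0.192, so pairs of unlike genotype included both the closest and the farthest pair. The per-animal responses of the genotypes did not overlap for 1455 genes (8.46%), and all animals of one genotype were opposite in sign to all of the other for 118 (0.686%).

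Cdh4, the gene of the calcium-dependent adhesion protein R-cadherin (chr2:179442431-179899373, plus strand, GRCm38), had the smallest p. It had 2.88, 1.76 and 1.83 CPM in denervated dKO legs and 7.27, 5.03 and 4.11 CPM in the innervated legs of the same animals. In WT animals it had 2.02, 3.95 and 4.98 CPM in denervated and 1.91, 3.50 and 5.72 CPM in innervated legs. Each dKO animal was thus lower in its denervated leg, and the WT animals were near equal between legs. The responses were −1.33, −1.5 and −1.16 in dKO animals, against 0.08, 0.17 and −0.20 in WT animals. The difference was −1.35 ± 0.17 (95% interval −1.74 to −0.96), with an unadjusted p of 1.59e-05 and an adjusted p of 0.273. Leaving out each pair of legs in turn gave −1.47 to −1.26. The innervated dKO value was also above that of WT animal 1 and 2 legs, so levels of the 2 genotypes overlapped in both states.

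Cdkn1a, the gene of the cyclin-dependent kinase inhibitor p21 and a classical p53 target (chr17:29090976-29100727, plus strand, GRCm38), was induced in both genotypes and less in dKO. It had 41.6, 42.0 and 54.9 CPM in denervated and 8.13, 4.52 and 7.73 CPM in innervated dKO legs. WT legs had 55.3, 76.8 and 82.2 CPM when denervated and 2.94, 6.67 and 5.56 CPM when innervated. The groups of denervated legs did not overlap, and those of innervated legs did. The fitted rise was 6.91-fold in dKO and 14.6-fold in WT. The difference was −1.08 ± 0.22 (95% interval −1.57 to −0.59), with an unadjusted p of 0.000642 and an adjusted p of 1 by edgeR. Its p53-type element is shown above. Trp53inp1, another p53 target, had a fitted rise of 1.57-fold in dKO and 2.24-fold in WT (difference −0.52 ± 0.14), but over all 20 p53 targets tested 9 differences were positive and 11 negative, with a median of −0.01.

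The 10 genes ranked highest and the 10 ranked lowest by unadjusted p, among those with at least 1 CPM and no overlap between genotypes, were chosen for their difference, so their values describe the edge of the distribution. On the positive side the differences were 0.40 to 1.28, with unadjusted p of 0.00127 to 0.00397. Slc38a3, a sodium-coupled glutamine transporter, had responses of −0.26, 0.25 and −0.15 in dKO animals, against −0.53, −0.64 and −0.75 in WT animals. Its difference was 0.59 ± 0.13, and its levels in innervated legs overlapped (130, 134 and 113 CPM in dKO, against 139, 111 and 115 CPM in WT). Kcnf1, a silent subunit of voltage-gated potassium channels, fell in both genotypes, to a fitted 0.432 of its innervated level in dKO and 0.208 in WT. Dact2, a Wnt pathway regulator at 1.31 CPM, fell to 0.501 in dKO and to 0.206 in WT. Kcnk5, a background potassium channel, rose 5.18-fold in dKO and 2.67-fold in WT. Pla2g4e, a cytosolic phospholipase, had a fitted ratio of 0.983 in dKO and fell to 0.636 in WT. Mustn1, a small nuclear protein of muscle and bone, fell to 0.828 in dKO and to 0.560 in WT. Pdzrn3, a ubiquitin ligase that acts on MuSK, had responses of −0.16 in dKO and −0.56 in WT. Emilin2, Ankrd39 and Epha2 complete this set.

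On the negative side the differences were −0.38 to −1.97, with unadjusted p of 1.59e-05 to 0.00481. Beside Cdh4 and Cdkn1a it holds Ccl7, a chemokine that attracts monocytes. Ccl7 had 2.02, 1.90 and 4.17 CPM in denervated and 0.466, 0.119 and 0.293 CPM in innervated dKO legs, against 4.66, 3.64 and 4.47 CPM in denervated and 0.174, 0.0549 and 0.126 CPM in innervated WT legs. Its difference was −1.97 ± 0.56, and without dKO animal 1 and WT animal 2 it was −1.03. Aif1l, an actin-binding protein, rose 5.14-fold in dKO and 9.67-fold in WT, with denervated dKO legs at 15.5, 13.9 and 38.9 CPM against 34.3, 31.7 and 39.3 CPM in WT. Tiam1, an activator of the small GTPase Rac, fell to 0.375 in dKO and to 0.569 in WT. Fn3k, a kinase that removes sugars bound to proteins, fell to 0.150 in dKO and to 0.250 in WT. Tro, at 1.01 CPM, had a fitted ratio of 1.02 in dKO and rose 2.41-fold in WT. Lrtm1, Tmem216 and Nme7 complete this set. Of these 20 genes, edgeR's adjusted p was 0.273 for Cdh4 and 1 for the others, and the sign held under each alternative tried.

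**Figure D4:**
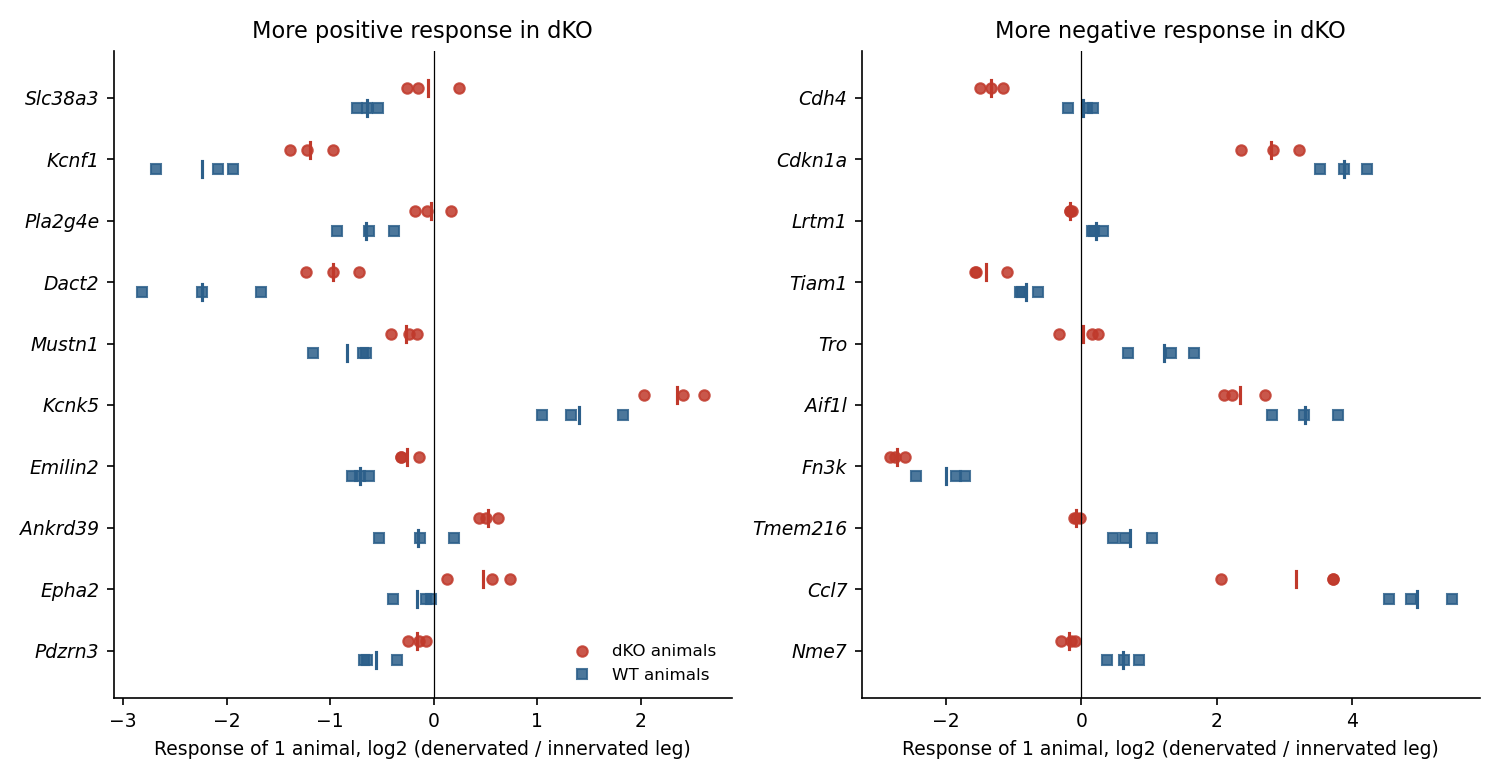
Response of each animal (log2, denervated over innervated leg) for the 10 genes with the smallest unadjusted p on each side, dKO as circles above WT as squares, with vertical ticks at the means. The genotypes do not overlap by the choice of genes, and the WT animals of Ccl7 lie between 4.54 and 5.46, above the dKO animals at 2.06 to 3.72.

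Of 17 well-known genes of denervation and muscle, 0 passed the test of a difference. Myog had 307, 369 and 303 CPM in denervated and 4.81, 5.82 and 5.65 CPM in innervated dKO legs. WT legs had 361, 243 and 249 CPM when denervated and 5.79, 6.67 and 8.13 CPM when innervated. Denervated legs overlapped, with WT animal 1 among the highest, and each innervated dKO value but 1 was below the lowest WT value. The fitted rise was 60.2-fold in dKO and 41.1-fold in WT, a difference of 0.55 ± 0.22 (95% interval 0.05 to 1.04) with an unadjusted p of 0.0335 that did not pass adjustment. Without dKO animal 1 and WT animal 2 it was 0.42, and leaving out each pair gave 0.33 to 0.85.

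Receptor genes followed. Chrna1, the alpha subunit of the muscle acetylcholine receptor, had 123, 137 and 160 CPM in denervated and 11.6, 12.6 and 13.8 CPM in innervated dKO legs, against 100, 143 and 129 CPM in denervated and 10.7, 10.3 and 15.7 CPM in innervated WT legs. Groups of the same leg overlapped, and the rise was 11.0-fold in dKO and 10.2-fold in WT (difference 0.11 ± 0.17, 95% interval −0.26 to 0.48). Chrnd, the delta subunit, rose 21.4-fold in dKO and 18.6-fold in WT (0.21 ± 0.15). Chrnb1, the beta subunit, rose 2.84-fold in dKO and 2.26-fold in WT (0.33 ± 0.14, unadjusted p 0.0365). Chrng, the gamma subunit of the fetal receptor, shows what the design cannot bound. It had 1.76, 1.58 and 5.75 CPM in denervated and 0.210, 0.134 and 0.930 CPM in innervated dKO legs, against 3.61, 2.05 and 5.55 CPM in denervated and 0.0669, 0.0183 and 1.56 CPM in innervated WT legs. WT animal 3 was high in both legs, and WT animal 2 was below the floor of 3 counts in its innervated leg. The difference was −0.35 ± 0.82 (95% interval −2.18 to 1.48), and leaving out each pair gave −3.06 to 0.32. Chrna9, a subunit better known from hair cells, rose 88.5-fold in dKO and 167-fold in WT from under 1 CPM (−0.92 ± 0.41, unadjusted p 0.0471).

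Other regulators and effectors had narrower intervals than Chrng. Gadd45a, a stress-response gene needed for denervation atrophy in mice, rose 33.9-fold in dKO and 33.5-fold in WT, with a difference of 0.02 (95% interval −0.37 to 0.41). Runx1, a transcription factor that limits wasting of denervated fibres, rose 25-fold in dKO and 24.5-fold in WT (0.03, −0.27 to 0.33). Musk, the kinase that clusters receptors, rose 14.3-fold in dKO and 13.8-fold in WT (0.06, −0.24 to 0.36). The ubiquitin ligase gene Fbxo32 rose 9.86-fold in dKO and 11.4-fold in WT (−0.22, −0.47 to 0.04), and Trim63 rose 9.49-fold in dKO and 8.83-fold in WT (0.10, −0.18 to 0.38). Ppargc1a, the coactivator of mitochondrial genes, fell to 0.174 of its innervated level in dKO and to 0.216 in WT (−0.31, −0.61 to −0.01, unadjusted p 0.0419). The histone deacetylase gene Hdac4, which links nerve activity to Myog, is in the table under 2 gene IDs. The ID ENSMUSG00000026313 rose 7.72-fold in dKO and 7.62-fold in WT (0.02, −0.26 to 0.29), and ENSMUSG00000073617 rose 9.96-fold in dKO and 10.7-fold in WT (−0.11, −0.33 to 0.12). Myod1, Ncam1, Dach2, Myh4, Pvalb and Arntl had differences of −0.05 to 0.22 with intervals that include 0.

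The narrowest bounds among strong responders, averaging 10 CPM or more and a mean response of 2 or more in size on the log2 scale, were those of Dusp13, Eif4a1, Tgif1, Atp1b1, Slc6a9, the second Hdac4 ID, Slc39a14, Tiam2, Pvr and Arhgap20. Dusp13, a phosphatase gene, had responses of 2.26, 2.25 and 2.29 in dKO animals, against 2.23, 2.18 and 2.16 in WT animals, with an interval of −0.12 to 0.28. Eif4a1, the helicase of translation initiation, had 1.95, 2.08 and 2.01 in dKO, against 2.16, 2.09 and 1.99 in WT (−0.27 to 0.13). Tgif1, a repressor of TGF-beta signalling, had 3.66, 3.64 and 3.62 in dKO animals, against 3.95, 3.98 and 4.01 in WT animals. These groups did not overlap, and the difference of −0.34 ± 0.10 (95% interval −0.56 to −0.13, unadjusted p 0.0052) did not pass adjustment.

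The 32 gene lists of muscle, chromatin and inflammatory genes and 11 lists of cell type markers hold 690 tested genes, of which 0 passed the adjusted test and 35 (5.07%) reached an unadjusted p of 0.05. Over all tested genes the share was 3.88%, the median difference −0.00 and the share of positive differences 48.8%. The sign of the median held for 15 of the 43 lists after GC correction, without the animal block, without dKO animal 1 and WT animal 2, and without each pair of legs in turn. Among them were 11 gene lists: receptor subunits, synapse organisers, myogenic factors, class II deacetylases, Runx and Gadd45 regulators, proteasome, glycolysis, core sarcomere, calcium handling, polyamine and cell cycle genes. For each of the other lists at least 1 of these settings turned the sign of the median, so that their signs carry little weight. In the accounts of the lists, rose and fell mean called in the genotype's own test, which called 24.3% of all tested genes up and 23.3% down in dKO, against 25.5% up and 23.9% down in WT.

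Among synapse genes, 6 of 7 acetylcholine receptor subunits passed the filter, 4 positive and 2 negative, with a median difference of 0.10 that was 0.01 to 0.18 when each pair of legs was left out in turn. The 14 organisers of the synapse, such as Ache, Dok7 and Musk, were positive in 12 and negative in 2 (median 0.11). Their median was 0.05 without dKO animal 1 and WT animal 2, and leaving out each pair gave 0.06 to 0.17 with 1 to 6 negative members. Ache, the acetylcholinesterase gene, fell in both genotypes with a difference of 0.44 ± 0.18 (unadjusted p 0.0302). Of 12 myogenic and MEF2 factors 8 were positive and 4 negative (median 0.10). The 7 class II deacetylase and Dach genes were positive in 6 and negative in 1 (median 0.30, and 0.01 without dKO animal 1 and WT animal 2). Hdac9 was the only one of them at an unadjusted p of 0.05 (0.43 ± 0.14, p 0.012). The 16 Runx, Gadd45 and other denervation regulators were positive in 12 and negative in 4 (median 0.06, and 0.02 to 0.19 when each pair was left out).

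The proteasome rose in both genotypes. All 31 subunits were called up in dKO (24.3% of all tested genes were) and all 31 in WT (25.5% of all tested genes), with a median response of 0.86 in each. Their differences were small, 26 positive and 5 negative with a median of 0.06, and the intervals of all 31 lay within 1.5-fold. Leaving out each pair of legs in turn gave medians of 0.01 to 0.12 and 0 to 14 negative members, so the tally of signs rests on single animals. Psmd3, a subunit of the regulatory cap, had the smallest p among them (0.23 ± 0.11, unadjusted p 0.0694). The 17 atrophy ubiquitin ligases had 8 positive and 9 negative values (median −0.00, 16 within 1.5-fold), and 23 autophagy and lysosome genes 9 and 14 (median −0.01, 21 within 1.5-fold). Wipi1, a protein of early autophagosomes, had a difference of 0.30 ± 0.10 (unadjusted p 0.0104).

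Genes of energy metabolism mostly fell in both genotypes. Of 48 nuclear oxidative phosphorylation genes 43 were called down in dKO (23.3% of all tested genes were) and 47 in WT (23.9% of all tested genes), with median responses of −0.43 in dKO and −0.45 in WT, and 45 intervals lay within 1.5-fold (median difference 0.01, and −0.03 to 0.07 when each pair was left out). Cox6a2, the muscle form of a cytochrome oxidase subunit, reached an unadjusted p of 0.0489 (0.45 ± 0.20), but its difference was 0.06 without dKO animal 1 and WT animal 2. Of 34 citrate cycle and fat oxidation genes 25 fell in dKO and 25 in WT (median difference −0.00). Of 21 genes of glycolysis and glucose uptake 14 fell in dKO and 15 in WT (median difference 0.08, 16 positive and 5 negative). That median was 0.02 after GC correction and 0.05 without dKO animal 1 and WT animal 2. Leaving out each pair gave 1 to 9 negative members. At 300 to 1000 CPM, a level near theirs, 65.1% of all genes were positive, with a median of 0.03. The 12 tested mitochondrially encoded genes were positive in 11 and negative in 1, with a median of 0.04, which was −0.12 to 0.16 when each pair of legs was left out in turn and 0.19 without dKO animal 1 and WT animal 2. The 13 PGC-1, PPAR and ERR regulators had 7 positive and 6 negative values (median 0.00). Among 41 cytosolic ribosomal protein genes 38 were called up in dKO (24.3% of all tested genes were) and 36 in WT (25.5%), with 40 intervals within 1.5-fold (median difference −0.00).

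Contractile and membrane genes had mostly small positive differences, and 0 passed the test. Above 1000 CPM, near the level of the sarcomere list, 80% of all genes were positive, with a median of 0.07. At 100 to 300 CPM, near the calcium handling and dystrophin lists, 57.8% were, with a median of 0.02. At 30 to 100 CPM, near the ion channel list, 50.1% were. Of 30 tested core sarcomere genes 22 were positive and 8 negative (median 0.06, and 0.02 to 0.13 when each pair was left out), of 23 calcium handling genes 17 and 6 (0.08), of 22 ion channels and pumps 15 and 7 (0.06, and −0.01 after GC correction), and of 15 dystrophin complex genes 10 and 5 (0.06). Tcap, which anchors titin, had the smallest p of the sarcomere list (0.44 ± 0.17, unadjusted p 0.0254), with 0.23 after GC correction and 0.16 without dKO animal 1 and WT animal 2. The 7 myosin heavy chains had 3 positive and 4 negative values (median −0.11, and 0.05 without the animal block). Of 10 intermediate filament and keratin genes 8 were positive (median 0.12, and −0.07 to 0.24 when each pair of legs was left out). Krt18, a keratin, had 83.3 to 111 CPM in denervated and 0.18 to 0.396 CPM in innervated dKO legs, against 85.5 to 108 CPM in denervated and 0.268 to 1.29 CPM in innervated WT legs. Its difference was 1.00 ± 0.63. Of 22 collagen and matrix genes 18 were positive and 4 negative (median 0.09, and −0.12 without dKO animal 1 and WT animal 2).

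Cell cycle and replication genes had mostly negative differences, and 0 of 33 passed the test. The differences were negative for 30 of 33 (90.9%) and positive for 3, with a median of −0.25. Of all genes at 1 to 3 CPM, a level near theirs, 44.7% were positive with a median of −0.04. The median responses were 0.47 in dKO and 0.83 in WT. In innervated legs the members summed to 87.4, 91.0 and 89.5 CPM in dKO animals, against 73.4, 77.3 and 80.9 CPM in WT animals. The innervated groups did not overlap. In denervated legs the sums were 103.7, 117.5 and 115.4 CPM in dKO animals, against 104.3, 110.5 and 107.3 CPM in WT animals, and these overlapped. The lower response in dKO thus went with a higher summed level in innervated dKO legs. Per animal, the list's median response was 0.29, 0.49 and 0.58 in dKO animals, against 1.03, 0.53 and 0.50 in WT animals. These values overlapped, and WT animal 1 was the highest. Leaving out each pair of legs in turn left 26 to 30 negative members and medians of −0.34 to −0.21, and the median was −0.28 without dKO animal 1 and WT animal 2. The members were mostly low, with a median of 1.61 CPM, and 5 of 33 were bounded within 1.5-fold. Ccne2, a cyclin of the entry into S phase, and Mcm7, a subunit of the replicative helicase, reached an unadjusted p of 0.05 (−0.42 ± 0.17 and −0.29 ± 0.12). Mki67, the common marker of dividing cells, had −0.33 ± 0.31. The genes of a list share regulation and animals, so their signs are not independent.

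Inflammatory genes included some with wide intervals. Of 20 tested chemokine and cytokine genes 12 were positive and 8 negative (median 0.05, and −0.11 without dKO animal 1 and WT animal 2), and 4 reached an unadjusted p of 0.05, all negative: Ccl7, Ccl2, Ccl6 and Ccl9. Ccl2, the main monocyte attractant, had responses of 2.84, 3.04 and 3.58 in dKO animals, against 4.77, 3.34 and 4.45 in WT animals (−1.08 ± 0.39). Of 24 interferon-induced genes 17 were negative and 7 positive (median −0.13, and −0.26 to 0.05 when each pair was left out), but the median was 0.08 without dKO animal 1 and WT animal 2. Cxcl10, a chemokine induced by interferon, had 2.59, 3.43 and 3.82 CPM in denervated and 1.07, 0.149 and 0.172 CPM in innervated dKO legs. WT legs had 7.36, 4.2 and 3.38 CPM when denervated and 0.0268, 0.0183 and 0.157 CPM when innervated. The innervated leg of dKO animal 1 was high, and innervated legs of WT animals 1 and 2 were below 3 counts. The difference was −3.25 ± 1.21 (95% interval −5.95 to −0.54), and −1.41 without dKO animal 1 and WT animal 2. The 21 AP-1, Nr4a and Egr genes, which respond at once to stress and activity, were positive in 18 and negative in 3 (median 0.21), but the median was −0.04 without those animals. In dKO animals 1, 2 and 3 the median response of that list was 1.99, 0.85 and 0.95, against 0.88, 0.51 and 0.75 in WT animals. Of 29 integrated stress genes 15 were positive and 14 negative (0.00), of 19 heat-shock genes 10 and 9 (0.03), of 14 polyamine genes 5 and 9 (−0.09), and of 19 clock genes 10 and 9 (0.00).

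Among the genes that handle H2A.Z itself, 0 passed the test. Of 24 deposition and removal genes 14 were called up in dKO (24.3% of all tested genes were) and 15 in WT (25.5%), 10 differences were positive and 14 negative (median −0.01), and 22 intervals lay within 1.5-fold. Vps72, which carries H2A.Z as part of the SRCAP and Tip60 complexes, had 0.81, 0.72 and 0.58 in dKO animals, against 0.36, 0.16 and 0.50 in WT animals. The groups did not overlap, and the difference of 0.37 ± 0.12 (unadjusted p 0.0101) did not pass adjustment. Of 9 histone variant genes 8 were tested, 6 positive and 2 negative (median 0.14, and −0.05 without dKO animal 1 and WT animal 2).

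**Figure D5:**
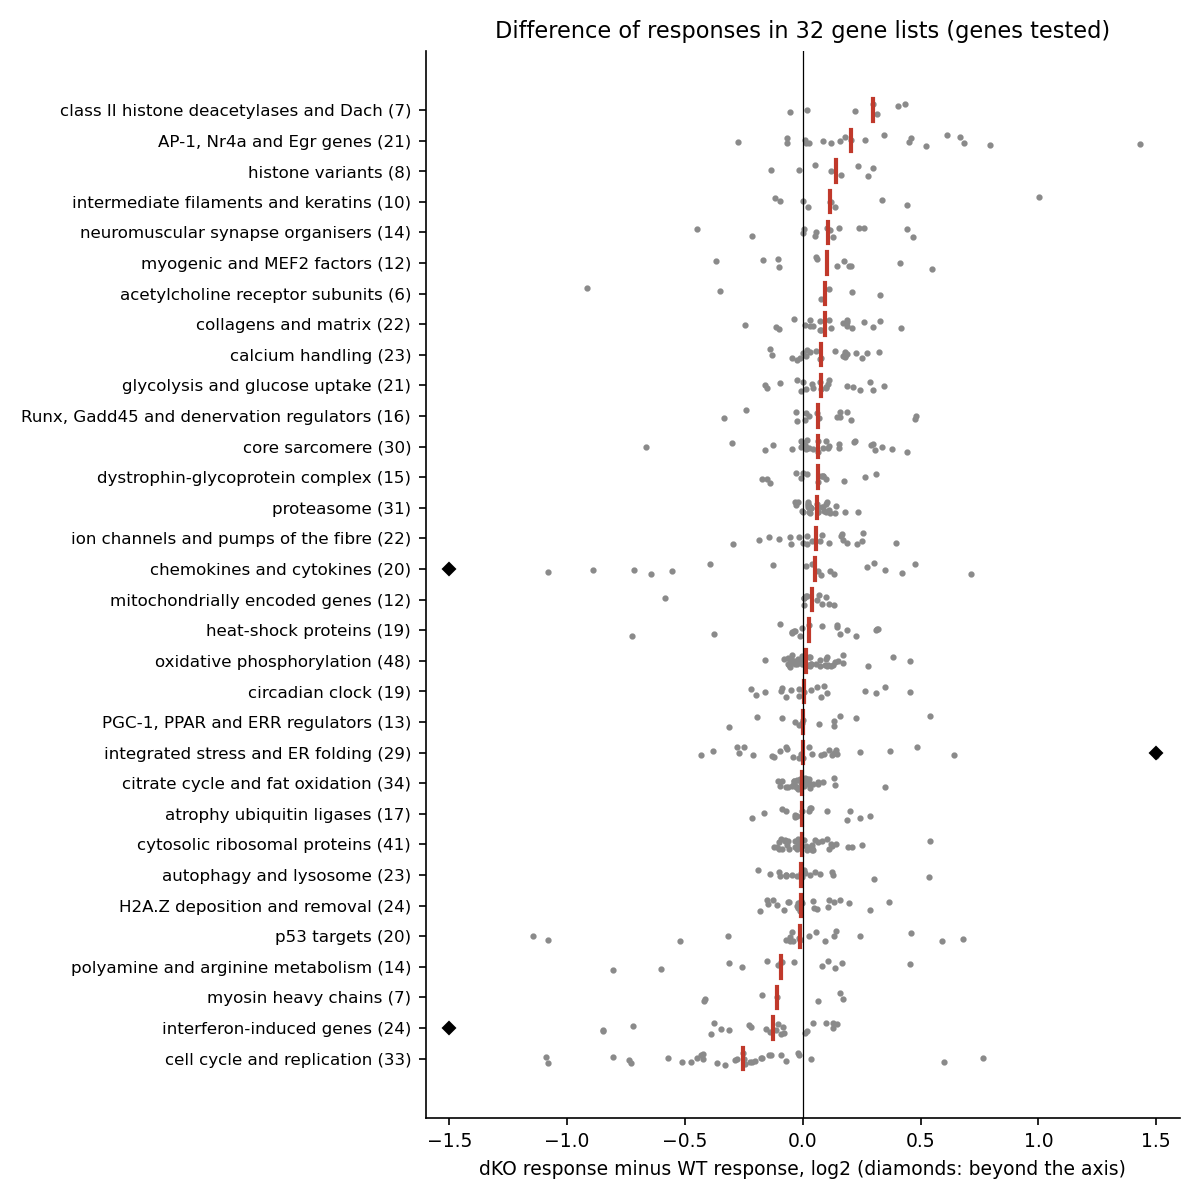
Difference of responses (dKO minus WT, log2) of each tested member of 32 gene lists, sorted by the list's median (red bar), with the number of tested genes in brackets. The medians of 27 lists lie within 0.12 of 0. Beyond lie class II deacetylases (0.30), AP-1 genes (0.21), histone variants (0.14), interferon-induced genes (−0.13) and cell cycle genes (−0.25).

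The markers of muscle and of other cells gave the setting of these values. Fast fibre markers dominated all groups, with Myh4 at 25656 CPM in denervated and 28380 CPM in innervated dKO legs, against 28964 CPM in denervated and 36515 CPM in innervated WT legs. Of 6 fast fibre markers 5 differences were positive (median 0.11). At their level, above 1000 CPM, 80% of all genes were positive (median 0.07). The summed macrophage markers were 104 to 125 CPM in denervated and 90.1 to 106 CPM in innervated dKO legs, against 102 to 118 CPM in denervated and 84.5 to 98.6 CPM in innervated WT legs, and 3 of 6 differences were positive (median −0.02). Among them Cd163 (0.37 ± 0.12) and Itgam (−0.50 ± 0.22) reached an unadjusted p of 0.05 in opposite directions, and Itgam has a near-identical annotated copy. Of 5 neutrophil markers 3 were tested, with Ly6g at 0 in both denervated groups and S100a8 at 26.2 CPM in denervated dKO and 16.3 CPM in denervated WT legs. S100a8 is also made by cells other than neutrophils, and its difference was 0.72 ± 0.65. Of 5 lymphocyte markers 1 was tested. The part of these cells in the chemokine, interferon and cell cycle values was not tested. Schwann cell markers summed to 16.6 to 18.4 CPM in denervated and 36.5 to 48.1 CPM in innervated dKO legs, against 18.8 to 20.5 CPM in denervated and 41.7 to 45.8 CPM in innervated WT legs. Their median difference was 0.02, but −0.24 without dKO animal 1 and WT animal 2 and −0.20 to 0.23 when each pair was left out. The median differences of endothelial, mural, fibroblast, satellite cell, adipocyte and erythroid markers were −0.03, 0.04, 0.09, −0.16, −0.03 and −0.24, with 0 genes past the adjusted test. Without dKO animal 1 and WT animal 2 they were 0.07, 0.05, 0.06, 0.03, 0.19 and −0.31 in the same order. Leaving out each pair gave −0.09 to 0.03 for endothelial, −0.05 to 0.24 for fibroblast, −0.23 to −0.02 for satellite cell and −0.22 to 0.35 for adipocyte markers.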

How the data were processed

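The 12 libraries form 4 groups of 3 by the labels, whose protocols describe a stranded kit for total RNA with removal of ribosomal RNA. Tools named, without role or order, in the submitters' processing notes are HTSeq 0.6.1, Bowtie, TopHat2 2.0.14 and bcl2fastq 2.17.1.14. The same notes name the build mm9. The strand setting of the counting was not given in the sources used here. Values are raw read counts per gene, as deposited by the authors. A further 24 columns of per-sample values were not used.

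The counts were scaled by TMM and fitted with edgeR 4.0.16 (limma 3.58.1, R 4.3.3) on 17201 of 31057 genes kept by filterByExpr, which hold 99.975% of counts. The model had 6 animal blocks and a denervation term for each genotype, with 4 residual and 6.05 prior degrees of freedom. The series' design text says that the other hind leg of the mouse was the control, and equal numbers were taken as 1 animal. As a check, over 12706 genes the deviations of legs with equal numbers correlated at 0.197 to 0.508 in dKO and 0.271 to 0.459 in WT, against −0.389 to 0.088 in dKO and −0.376 to 0.082 in WT for unequal numbers. Deviations from a group mean sum to 0 for each gene, so positive values for equal numbers push the others down. The check cannot tell a shared animal from another trait shared by equal numbers. Differences were tested with the quasi-likelihood test and adjusted over all genes by Benjamini-Hochberg at 0.05. Intervals are 95%, from the standard error of the same fit. Bins of level are of mean CPM over the 12 libraries. The functions were tested on simulated counts with known differences. At these depths 3 counts equal 0.0342 to 0.0539 CPM per library before the TMM adjustment, for counting error only.

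Named genes are H2afz and H2afv, the 10 highest and 10 lowest differences by unadjusted p at 1 CPM or more with no overlap of animals (since 0 genes were called), 17 known denervation and muscle genes, up to 2 genes per list by p, and the 10 strong responders with the narrowest intervals. Predicted genes, small RNAs, Xist and Y-linked genes were left out of the ranked sets. The members, the 32 gene lists and the 11 marker lists (716 entries, 1 of them not found by symbol) were chosen with earlier results of these data known. Positions, GC content (95.2% of tested genes) and exon overlaps come from GENCODE M21 (GRCm38, which differs from mm9), and promoters from RefSeq (GRCm38.p6). A BLAST 2.17.0 search (98% identity, 50% of a transcript's length) found near-identical copies for 4 of 126 named genes with a transcript there (Itgam, Rpl27, Amd2 and mt-Nd4). Symbols shared by several IDs (178) were handled by ID. Alternatives included DESeq2 1.42.0 and limma-voom with the same blocks, no block, no filter, GC correction and leaving out animals.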

Additional observations from a re-analysis of the deposited data

Results flagged for a closer look

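For 6 of the 129 named genes every dKO animal moved one way and every WT animal the other way. Over all tested genes this held for 118 (0.686%). These 6 genes were named for a small unadjusted p of the same difference, so their number cannot be set against that share. The difference itself was tested in each case with edgeR's quasi-likelihood test and did not pass, with an adjusted p of 1. Lrtm1 had responses of −0.14, −0.17 and −0.17 in dKO and 0.16, 0.31 and 0.18 in WT, a difference of −0.38 at a mean of 106 CPM. Epha2, an ephrin receptor kinase, had 0.74, 0.56 and 0.13 in dKO and −0.08, −0.40 and −0.03 in WT, a difference of 0.64. Wipi1 had 0.30, 0.28 and 0.06 in dKO and −0.03, −0.09 and −0.16 in WT, a difference of 0.30. Ccne2 had −0.11, −0.20 and −0.41 in dKO and 0.02, 0.48 and 0.05 in WT, a difference of −0.42. Tmem216, a protein of the base of the cilium, had −0.02, −0.11 and −0.09 in dKO and 1.04, 0.64 and 0.46 in WT, a difference of −0.79 at 1.72 CPM, and its exons overlap those of Cpsf7 on the other strand. Nme7, of the nucleoside diphosphate kinase family, had −0.10, −0.15 and −0.30 in dKO and 0.85, 0.38 and 0.63 in WT, a difference of −0.82 at 1.28 CPM. Its exons overlap those of Atp1b1 on the other strand, which fell in both genotypes (−2.64 in dKO and −2.83 in WT), and with the strand setting not given reads of such pairs may be shared. The part of these overlaps in the values was not tested.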

How the results depend on the processing

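The count of 0 called genes was the same with limma-voom, DESeq2 size factors, a filter at 1 CPM, GC correction and a robust prior. It was also the same without each animal in turn. A threshold of 0.10 and a fold limit of 1.2 gave 0 as well, but neither could give another count. The smallest adjusted p of the edgeR test was 0.273, and a fold limit makes that test stricter. DESeq2 called 3 genes and the fit without a filter 168, also 168 with a robust prior, an alternative chosen after seeing the data. At an unadjusted p of 0.05 the count of 668 became 410 with DESeq2, 1357 without a filter and 1357 without a filter and with a robust prior, and 417 to 1014 without each animal. It was lowest without dKO animal 2 and highest without dKO animal 3. With no replicate block 0 genes were called and 374 were counted. The share of genes at 1 CPM or more bounded within 2-fold was 92.0% to 98.3%, and within 1.5-fold 65.4% to 82.9%, over all alternatives. Both upper ends came from the fits without a filter, where each gene's spread came from the trend. The next highest shares were 96.3% and 80.5%, with GC correction. The median size of the difference at 1 to 3 CPM, divided by that at 100 to 300 CPM, was 2.72. This ratio was 2.46 to 2.82 over the alternatives. The difference in response size was −0.032 to 0.019 without each animal. Of 2059 values of 129 named genes under the alternatives, 1900 stayed within 1 SE, 101 moved further with no call and 58 were called under an alternative. The sign changed in 43, in 5 of them where the difference exceeded its SE. Bounds were wider at low expression level, and whether more reads would narrow them was not tested: 30.3% of genes at 0.3 to 1 CPM were bounded within 2-fold, and 21.6% of those at 1 to 3 CPM within 1.5-fold.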
